A study of Mus musculus with 12 samples.

Results

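The nuclear receptors described here are the 33 genes of this family left when the REV-ERB and ROR receptors of the clock and the bile acid, xenobiotic, glucocorticoid and PPAR alpha receptors are set aside. The rule names them by gene symbol. Of the 33, 32 were found among the 21490 gene symbols of the table and 17 passed the limit for testing, a signal above 6 rpbp in at least 1 library. Nr0b1, an orphan receptor of steroid-producing tissues, had no entry, so its signal was not analysed and it enters only the promoter motif search. The study asked which genes are transcribed rhythmically over the day in mouse liver. It measured nascent RNA, the RNA still being made on chromatin, by Nascent-Seq in livers of adult C57BL/6 mice (3 to 6 months of age; male, per the study's methods) kept in 12 hr of light and 12 hr of dark. Livers were taken every 4 hr from ZT0 (lights on, in zeitgeber time) through ZT12 (lights off) to ZT20, which gave 6 time points of 2 replicates and thus 12 libraries. The mice carried no engineered allele and received no agent apart from the isoflurane used at sacrifice, per the study's methods. All animals shared the light schedule, and no time point served as a control.

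Nuclear receptors are transcription factors that bind DNA through a zinc finger domain and carry a second domain for a ligand, such as a steroid, a thyroid hormone, a retinoid or an oxysterol. Many of them bind DNA paired with a retinoid X receptor (RXR), and coactivator or corepressor proteins exchanged on the receptor set the output of the target gene. Those without a known hormone are called orphan receptors. In liver, members of the family govern hepatocyte identity, lipid and sterol metabolism and the response to hormones.

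Each value is a read density over exons (reads per base pair, rpbp), so levels can be compared between genes as well as between libraries. The signal was counted without regard to strand, and genes that overlap share it. The rpbp values of a library summed to between 118342 and 160545. The 4 libraries of ZT8 and ZT20 were sequenced in 2 lanes each and the other 8 in 1 lane. Read numbers are not part of the table, totals stated by the study were left unused, and no counting interval was given. 2 libraries stood apart over all tested symbols: in ZT8 replicate 2 the log2 signal fell by 1.19 from the lowest to the highest of 20 bins of exon GC content, and ZT16 replicate 2 had the lowest median log2 deviation from the mean of the libraries (−0.20). The summed signal of 10 hepatocyte markers ran from 1016 to 2342 rpbp per library. It ran from 22.9 to 77.9 rpbp for 8 Kupffer cell markers, from 13.8 to 26.1 for 8 stellate cell markers, from 16.7 to 36.4 for 8 endothelial markers, from 2.8 to 12.2 for 6 lymphocyte markers and from 1.0 to 2.5 for 5 cholangiocyte markers. The libraries thus carried the markers of the labelled tissue. In such bulk samples, fewer cells of a type and less RNA per cell cannot be told apart. The labels do not say whether replicates are separate animals, while the study calls the 12 samples independent. All p-values rest on these 12 libraries. Those of the F-test and of the contrasts use the spread between replicates of a time point, and the permutation p shuffles the 12 values of a gene.

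The receptor genes ranged from no signal to among the higher signals of the table. Rxra and Hnf4a had the highest means, 57.3 and 47.9 rpbp, at the 99.2 and 98.97 percentiles of all symbols. Means over 10 rpbp were also found for Nr5a2 (20.7), Nr3c2 (19.3), Nr1h3 (18.9), Thrb (15.4) and Nr2f6 (12.1). The first 6 of these 7 genes stood above 6 rpbp in all 12 libraries, and 11 further members did so in 1 to 11 libraries. Of the 15 members never above 6 rpbp, 7 reached 0.5 rpbp in at least 1 library (Nr1h2, Rara, Rarb, Nr4a1, Rarg, Rxrg and Esrrg). The other 8 stayed under 0.5 rpbp everywhere, and 3 of them, Vdr, Nr4a3 and Nr2e3, were listed at 0 in every library. The order of the means was not always that of the single libraries. Hnf4a exceeded Nr5a2, the next in order, in 12 of 12 libraries. In contrast, Nr3c2 exceeded Nr1h3 in 6 of 12 with 1 tie, Rxrb exceeded Nr6a1 in 5 of 12, and Ppard exceeded Nr2f2 in 4 of 12 although its mean was the higher.

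**Figure D1:**
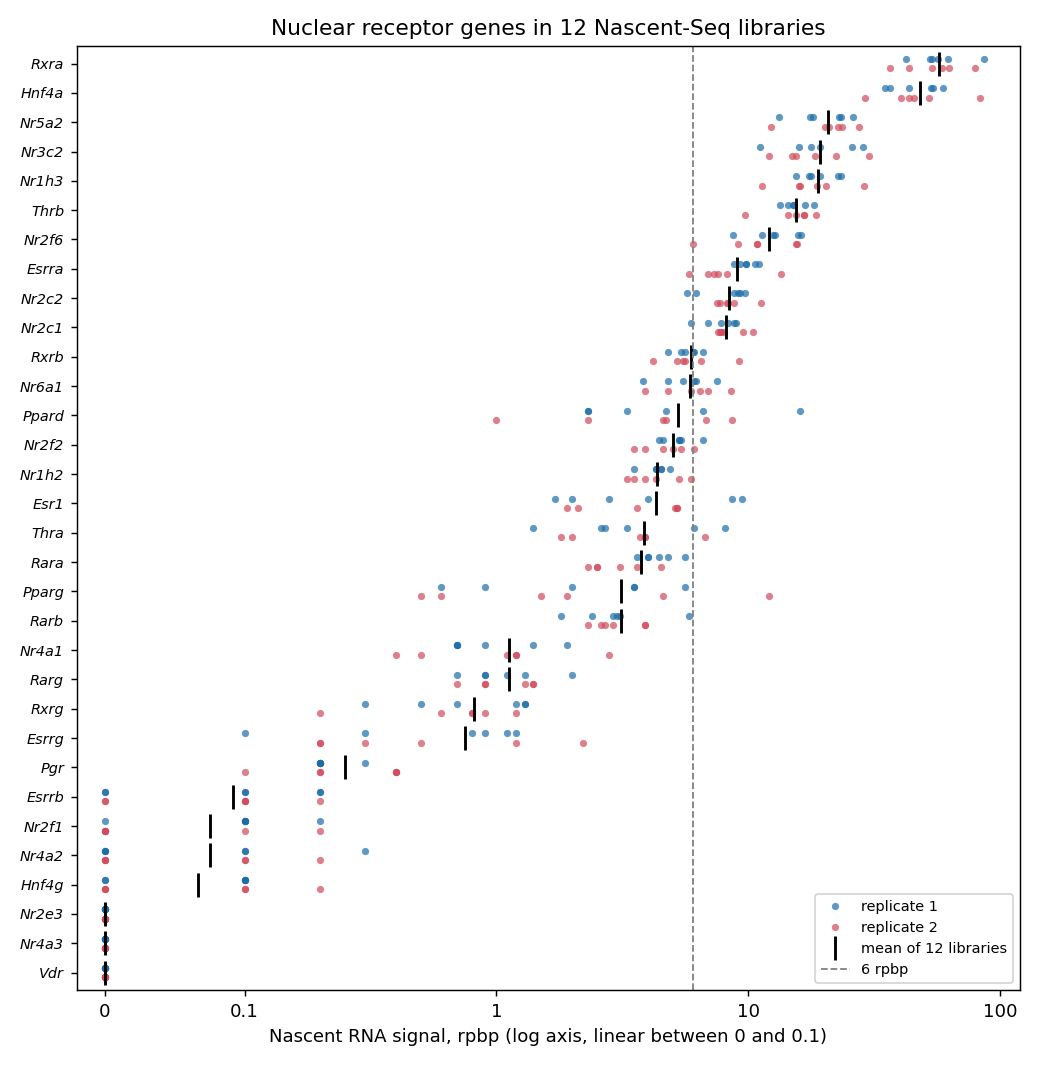
Nascent RNA signal (rpbp, horizontal log axis that is linear between 0 and 0.1) of the 32 receptor genes in the table, ordered by mean. Each point is 1 library, blue for replicate 1 and red for replicate 2, bars are means over 12 libraries and the dashed line marks 6 rpbp. Rxra and Hnf4a lie at the top, and Vdr, Nr4a3 and Nr2e3 lie at 0.

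Daily variation was tested in the 17 members above the limit, first for a 24-hr rhythm and then for a difference of any shape. F24 tells how much of the variance among the 12 values follows a cosine of 24 hr (0 for none, 1 for all). The rhythm rule asked for F24 above 0.45, a ratio of highest to lowest value above 1.5 and a permutation p under 0.05 before adjustment. By this rule, 4 of the 17 tested members (23.5%) were called rhythmic, namely Thra, Nr6a1, Nr3c2 and Ppard, against 955 of all 6284 tested symbols (15.2%). After Benjamini-Hochberg adjustment over all tested symbols, 0 of the 17 had a permutation p under 0.05 (39 symbols, 0.621%, did over the whole table), while 4 of the 17 had an unadjusted p under 0.05 (16.4% over the table). The moderated F-test of limma over the 6 time points called 2 of the 17, Thra and Ppard, at an adjusted p under 0.05, against 7.65% of all tested symbols. At an unadjusted p under 0.05 it called 8 of the 17, against 27.6%. With replicate number as a block, the F-test gave an adjusted p of 0.0534 for Thra and 0.0524 for Ppard, so neither call held. The median F24 was 0.287 over the tested members and 0.222 over all tested symbols, and the median coefficient of variation (SD over mean of the 12 libraries) was 0.240 and 0.252. Of the 17, Thra, Pparg, Esr1, Rxrb, Nr6a1, Ppard and Nr2f2 passed the limit in 6 libraries or fewer, where a high value at some time points is what admitted them.

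**Figure D2:**
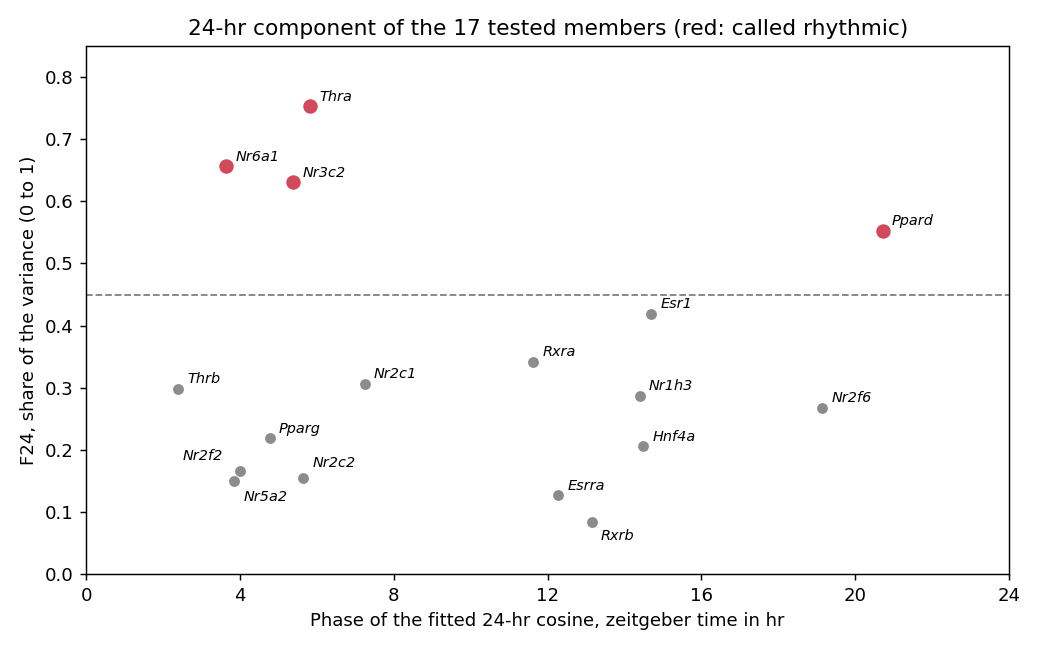
F24 (vertical axis, share of the variance) against the phase of the fitted 24-hr cosine (horizontal axis, zeitgeber time in hr) for the 17 tested members. Red points are the 4 members called rhythmic, gray points the others and the dashed line F24 of 0.45. Thra, Nr3c2 and Nr6a1 lie between 3.64 and 5.82 hr and Ppard lies at 20.7 hr.

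The 3 pairs of time points 12 hr apart were compared in the same limma model, on log2(rpbp + 1). Between ZT0 and ZT12, 0 of the 17 members differed at an adjusted p under 0.05 against 4.44% of all tested symbols, and 4 did at an unadjusted p, against 18.4%. Between ZT4 and ZT16, 2 members, Thra and Nr6a1, were lower at ZT16, against 1.34% of symbols called lower there. Over all tested symbols the median log2 difference of ZT16 against ZT4 was already −0.20, and that of the 17 members was −0.28. Between ZT8 and ZT20, 1 member, Ppard, was higher at ZT20, against 1.16% of symbols. The median log2 difference over all symbols was 0.03 for ZT12 against ZT0 and 0.00375 for ZT20 against ZT8.

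HNF4A and RXRA are the 2 receptors with the largest nascent signal. HNF4A is an orphan receptor that maintains hepatocyte gene expression, and RXRA is the obligate partner of many other receptors. Rxra (chr2:27532721-27618839; all positions of genes are in mm9, counted from 1) was read in replicates 1 and 2 at 52.7 and 62.3 rpbp at ZT0, 53.5 and 53.7 at ZT4, 56.8 and 43.3 at ZT8, 86.3 and 79.3 at ZT12, 61.9 and 58.8 at ZT16 and 42.4 and 36.5 at ZT20. Both ZT12 libraries stood above the other 10, and both ZT20 libraries stood below the other 10. The mean was 82.8 ± 4.95 (SD, n = 2) rpbp at ZT12 and 39.5 ± 4.17 at ZT20, a 2.10-fold range of means, and differences between time points held 91.9% of its variance. Even so, the adjusted p of the limma F-test was 0.0671, and 0.0399 to 0.205 over the alternatives tried, with F24 at 0.342 (permutation p = 0.157). Its F24 rose to 0.553 when the GC trend was removed, to 0.585 with lanes as a block and to 0.549 without ZT8 replicate 2. Rxra was called rhythmic in these 3 settings, but the lane block is balanced over the 24-hr cosine and cannot lower F24. In the other direction, F24 fell to 0.204 without ZT12 replicate 1 and to 0.230 without ZT12 replicate 2.

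Hnf4a (chr2:163332584-163398643) had a lowest, median and highest value of 29.0, 44.6 and 83.3 rpbp. Its highest time-point mean also fell at ZT12 (71.3 ± 17.04 rpbp, n = 2) and its lowest at ZT8 (32.7 ± 5.23). F24 was 0.206 (permutation p = 0.366) and the limma F-test gave an adjusted p of 0.166. A clone symbol, 0610008F07Rik, overlaps Hnf4a over 34873 bp and read 26.4 to 77.1 rpbp, with a Pearson r of −0.158 to Hnf4a over the 12 libraries. Rxrb, a second RXR, was read between 4.2 and 9.2 rpbp with a median of 5.6, and its F24 was 0.0844 (permutation p = 0.760). Rxra was higher than Rxrb in 12 of 12 libraries, by 6.52-fold to 14.4-fold with a median of 9.50. Rxrg reached at most 1.3 rpbp, and Hnf4g, the relative of Hnf4a in gut and kidney, at most 0.2.

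**Figure D3:**
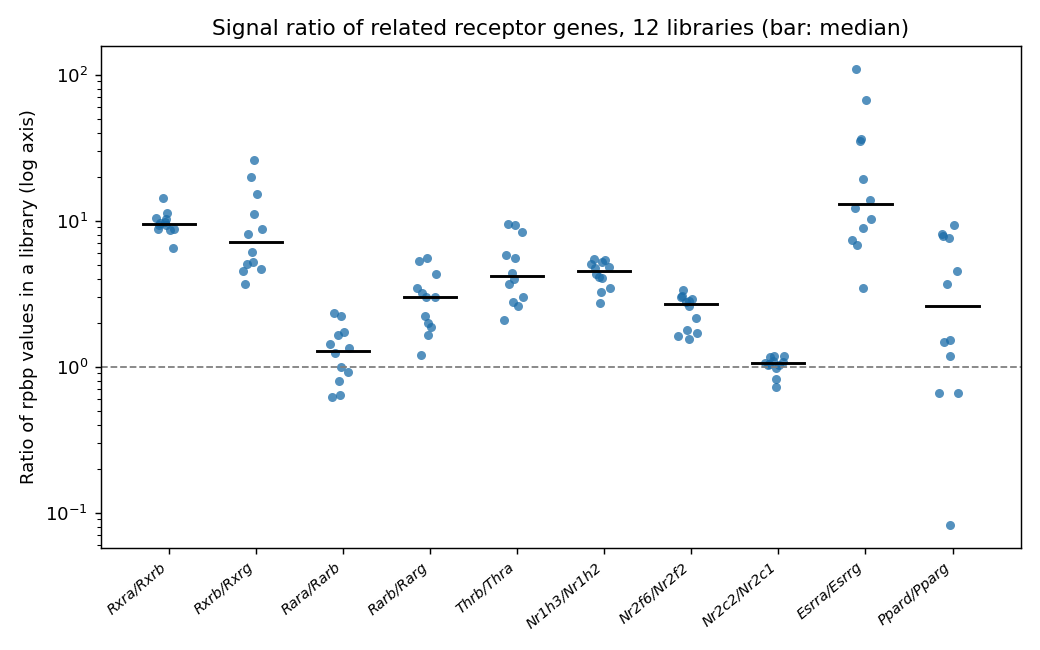
Ratio of the rpbp values of related receptor genes (vertical log axis) in each of 12 libraries, with the bar at the median and the dashed line at equal signal. Pairs whose second gene was at 0 in some libraries are left out. Rxra exceeded Rxrb, Thrb exceeded Thra and Nr1h3 exceeded Nr1h2 in all 12 libraries, whereas Nr2c2/Nr2c1, Rara/Rarb and Ppard/Pparg lay on both sides of 1.

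The retinoic acid receptors, which bind all-trans retinoic acid as partners of RXR, were weakly transcribed, and none passed 6 rpbp. Rara, the highest of the 3, was read in replicates 1 and 2 at 4.0 and 3.6 rpbp at ZT0, 4.0 and 3.1 at ZT4, 4.4 and 2.5 at ZT8, 4.8 and 4.5 at ZT12, 5.6 and 2.3 at ZT16 and 3.6 and 2.5 at ZT20. Rarb stood at 1.8 to 5.8 rpbp and Rarg at 0.7 to 2.0. When all symbols were tested with no threshold, Rarg was called rhythmic by the rule, with time-point means between 0.8 and 1.7 rpbp, highest at ZT16. Rara exceeded Rarb in 7 of 12 libraries and Rarb exceeded Rara in 4, with 1 tie, so their order did not hold beyond the spread of the libraries. Rarb exceeded Rarg in 12 of 12, by a median of 3.00-fold.

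The thyroid hormone receptors bind triiodothyronine and act on genes of lipid and energy metabolism. Thrb, which encodes the main receptor of hepatocytes, was the higher of the pair in 12 of 12 libraries. Its signal in replicates 1 and 2 was 15.1 and 14.4 rpbp at ZT0, 18.3 and 18.5 at ZT4, 16.8 and 15.5 at ZT8, 14.4 and 9.7 at ZT12, 13.4 and 16.7 at ZT16 and 15.2 and 16.7 at ZT20. The gene varied little: its coefficient of variation was 0.154, the single low value was ZT12 replicate 2, F24 was 0.298 (permutation p = 0.194) and the limma F-test gave an adjusted p of 0.383. Clone symbols inside the Thrb unit, AK088911 and AK041706, were read at 3.9 to 13.7 rpbp.

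Thra (chr11:98603187-98630320, + strand) had the largest F24 of the 17 members, 0.753 with a phase of 5.82 hr. It was read in replicates 1 and 2 at 2.7 and 3.9 rpbp at ZT0, 6.1 and 6.7 at ZT4, 8.1 and 3.9 at ZT8, 3.3 and 3.7 at ZT12, 1.4 and 1.8 at ZT16 and 2.6 and 2.0 at ZT20. Both ZT4 libraries and ZT8 replicate 1 were the 3 highest values and both ZT16 libraries the lowest. Its permutation p was 0.00094 and the adjusted p 0.0704. The limma F-test gave an adjusted p of 0.0397 (0.0163 to 0.105 over the alternatives), a call that held without either ZT8 library and was lost without any other 1 library (0.0562 to 0.102). At ZT16 the log2 signal fell by 1.51 against ZT4 (SE 0.28, limma adjusted p = 0.0278, 0.0146 to 0.162 over the alternatives), and this call was lost when any 1 of the 4 libraries of these time points was left out (adjusted p 0.0565 to 0.162). For ZT20 against ZT8 the log2 difference was −1.02 (SE 0.28, limma adjusted p = 0.122, 0.0326 to 0.447 over the alternatives). It was −0.58 without ZT8 replicate 1 and −1.47 without ZT8 replicate 2 (adjusted p = 0.306 and 0.0426), and it passed the limit with the GC trend removed (0.0326).

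Thra ends inside the transcription unit of a clock gene whose signal was strongly rhythmic. Thra and Nr1d1, which encodes the repressor REV-ERB alpha, lie on opposite strands, and their units overlap by 1072 bp at their 3′ ends (chr11:98629249-98630320). In GENCODE M1, 263 of the 4614 exon bases of Thra (5.70%) are also exon of Nr1d1. The whole last Thra exon (chr11:98629471-98630320, 850 bp, 18.4% of the exon bases) lies within the Nr1d1 unit, introns included. Nr1d1 stood at 1.0 to 40.6 rpbp over the 12 libraries, with F24 of 0.884 and a phase of 6.22 hr. The Pearson r between the 2 genes was 0.938 over 12 libraries that both genes share. When the Nr1d1 level times the share of 5.70% was taken from the Thra value, 1.34 to 5.79 rpbp were left, with F24 of 0.597 (permutation p = 0.0112) and a peak of the cosine at 5.51 hr. With the share of 18.4%, which treats the Nr1d1 intron as if it were read at the level of its exons, the remainder ran from −1.31 to 2.20 rpbp and was at or below 0 in 2 libraries, with a phase of 19.2 hr and F24 of 0.553 (permutation p = 0.0103). Under the larger share the remainder thus had the opposite phase. Subtracting a multiple of Nr1d1 itself puts the inverse of its rhythm into the remainder. The values below 0, at ZT4 replicate 1 (−0.827) and ZT8 replicate 2 (−1.313), cannot be a signal. The F24 and permutation p of this remainder therefore do not measure a rhythm of Thra. Both subtractions were chosen after seeing the data, the signal of the Nr1d1 intron was not used here, and rhythmic transcription of Thra and unstranded signal from Nr1d1 cannot be told apart in these values.

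**Figure D4:**
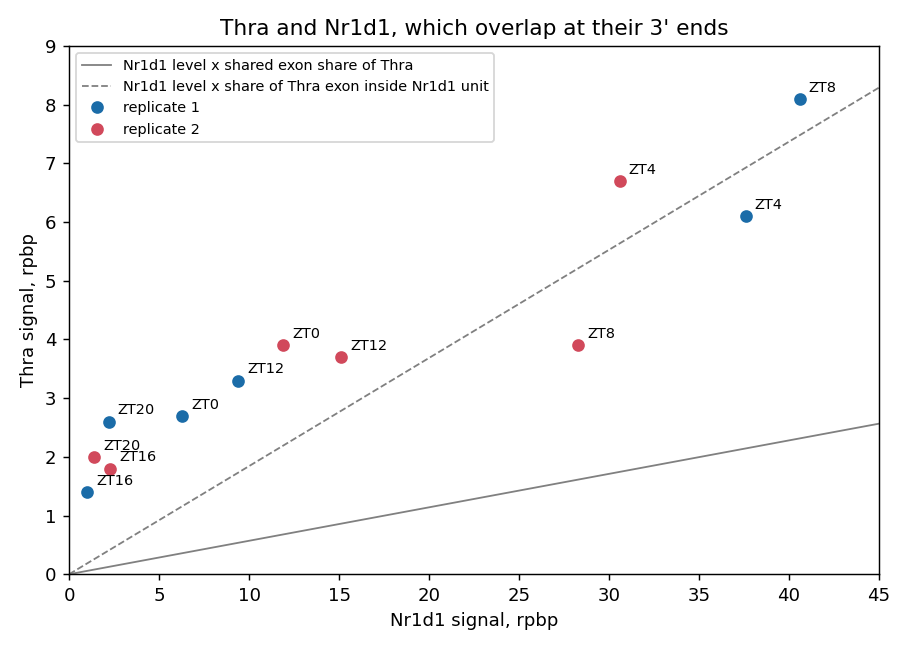
Signal of Thra (vertical axis, rpbp) against Nr1d1 (horizontal axis, rpbp) in the 12 libraries, labelled by time point, blue for replicate 1 and red for replicate 2. The solid line is the Nr1d1 level times the 5.70% of Thra exon bases shared with Nr1d1 exons, the dashed line that times the 18.4% inside the Nr1d1 unit. Thra ran from 1.4 to 8.1 rpbp as Nr1d1 ran from 1.0 to 40.6, and 2 points lie below the dashed line.

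The liver X receptors (LXRs) are sensors of oxysterols that act on cholesterol efflux and fatty acid synthesis. Nr1h3, which encodes LXR alpha, the form abundant in liver, had in replicates 1 and 2 a signal of 17.4 and 18.7 rpbp at ZT0, 15.5 and 16.1 at ZT4, 22.6 and 11.3 at ZT8, 17.8 and 28.7 at ZT12, 23.3 and 20.3 at ZT16 and 19.2 and 15.9 at ZT20. The replicates of ZT8 differed by 2.00-fold and those of ZT12 were as far apart as its highest value and its median, so no time point stood apart from the rest. F24 was 0.287 (permutation p = 0.216) and the limma F-test gave an adjusted p of 0.630. Nr1h2, which encodes the widely expressed LXR beta, stayed at 3.3 to 5.9 rpbp and below Nr1h3 in 12 of 12 libraries, by a median of 4.55-fold.

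COUP transcription factors are orphan receptors that often act as repressors. Nr2f6 led this group, with 12.5 and 15.5 rpbp at ZT0, 11.3 and 10.8 at ZT4, 8.7 and 6.0 at ZT8, 12.7 and 15.6 at ZT12, 16.2 and 9.1 at ZT16 and 15.8 and 10.8 at ZT20 in replicates 1 and 2. ZT8 held 2 of its 3 lowest values, and F24 was 0.268 (permutation p = 0.244). Its F24 was 0.592, and it was rhythmic by the rule, with the GC trend removed. Without ZT8 replicate 2, the library with the strongest GC trend and the lowest Nr2f6 value, F24 was 0.141 (permutation p = 0.526). Nr2f2 (COUP-TF II) had a lowest, median and highest value of 3.5, 5.15 and 6.6 rpbp with F24 of 0.167, and Nr2f1 did not exceed 0.2 rpbp. Nr2f6 exceeded Nr2f2 in 12 of 12 libraries, by a median of 2.68-fold.

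The testicular receptors TR2 and TR4 are a pair of orphan receptors that bind direct repeats of the receptor half-site. Nr2c2, for TR4, was read in replicates 1 and 2 at 5.7 and 8.8 rpbp at ZT0, 9.3 and 11.2 at ZT4, 8.8 and 7.5 at ZT8, 9.7 and 8.2 at ZT12, 6.2 and 7.7 at ZT16 and 9.1 and 8.3 at ZT20. Nr2c1, for TR2, had a lowest, median and highest value of 5.9, 7.9 and 10.4 rpbp. Nr2c2 was the higher in 9 of 12 libraries, by a median ratio of 1.06, so the pair was nearly level. Neither passed a test of time: F24 was 0.155 for Nr2c2 and 0.307 for Nr2c1 (permutation p = 0.473 and 0.195). The symbol mKIAA4145 covers 28180 bp of Nr2c2 and ends at the same base. Overlapping genes share their signal, so the r of 0.990 over the 12 libraries does not compare 2 separate signals. The symbol AK029258 overlaps Nr2c1 over 3136 bp and read 7.8 to 15.4 rpbp, with r of 0.654 to Nr2c1. Its part in the Nr2c1 level was not tested.

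The estrogen-related receptors need no known hormone and act with PGC-1 coactivators on mitochondrial genes. Esrra had in replicates 1 and 2 a signal of 9.8 and 8.2 rpbp at ZT0, 9.3 and 7.3 at ZT4, 8.8 and 7.6 at ZT8, 10.6 and 13.5 at ZT12, 11 and 5.8 at ZT16 and 9.8 and 6.9 at ZT20. The highest library was ZT12 replicate 2 and the lowest ZT16 replicate 2, whose partner at ZT16 was the second highest, and F24 was 0.127 (permutation p = 0.553). Esrrg ran from 0.1 to 2.2 rpbp and Esrrb from 0 to 0.2.

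NR5A2 (LRH-1) acts with other receptors on bile acid and cholesterol genes. Nr5a2 was read in replicates 1 and 2 at 13.2 and 22.7 rpbp at ZT0, 26.1 and 27.6 at ZT4, 17.5 and 20.1 at ZT8, 23.3 and 20.8 at ZT12, 18.0 and 12.3 at ZT16 and 22.9 and 23.6 at ZT20. The 2 libraries of ZT4 were the highest of the 12, and the lowest were ZT16 replicate 2 and ZT0 replicate 1. Its log2 difference of ZT16 against ZT4 was −0.81 (SE 0.26, limma adjusted p = 0.146) and its F24 0.150 (permutation p = 0.477).

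Nr6a1 (chr2:38578890-38783208, − strand) encodes GCNF, an orphan receptor known as a repressor of pluripotency genes in the embryo. It was read in replicates 1 and 2 at 4.8 and 6.9 rpbp at ZT0, 7.5 and 8.5 at ZT4, 6.1 and 6.4 at ZT8, 5.5 and 4.8 at ZT12, 3.8 and 3.9 at ZT16 and 6.2 and 5.9 at ZT20. Both ZT4 libraries were the highest of the 12 and both ZT16 libraries the lowest, with means of 8.0 ± 0.707 and 3.85 ± 0.0707 rpbp (SD, n = 2), a 2.08-fold range. F24 was 0.657 with a phase of 3.64 hr (permutation p = 0.0086, adjusted 0.153). The log2 signal at ZT16 fell by 0.89 against ZT4 (SE 0.20). This call was marginal, at a limma adjusted p of 0.04997, and was lost with a threshold of 3 rpbp, with no threshold, with rescaled libraries, with the GC trend removed, with a replicate block and without any 1 of the 10 libraries of ZT4, ZT8, ZT12, ZT16 and ZT20 (adjusted p up to 0.284). The rescaled log2 difference was −0.73. Nr2e3, a photoreceptor gene in this group, was at 0 in all libraries.

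The promoters of the rhythmic members Nr6a1, Nr3c2 and Ppard are shown here and below. Thra has no entry among the promoters used, and no relation of sequence to phase was tested. Each sequence is the 250 bases before a RefSeq transcript start in GRCm38.p6, a later build than that of the signal, written in the direction of transcription. For Nr6a1, RefSeq gives 2 promoters, at chr2:38926462-38926711 and chr2:38784516-38784765, both on the − strand. Capitals mark the receptor half-site AGGTCA or its reverse complement.
Nr6a1, first promoter: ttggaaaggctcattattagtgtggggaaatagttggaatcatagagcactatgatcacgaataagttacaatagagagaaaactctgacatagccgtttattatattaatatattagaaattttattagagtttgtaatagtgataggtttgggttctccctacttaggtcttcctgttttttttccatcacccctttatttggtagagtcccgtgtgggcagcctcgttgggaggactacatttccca
Nr6a1, second promoter: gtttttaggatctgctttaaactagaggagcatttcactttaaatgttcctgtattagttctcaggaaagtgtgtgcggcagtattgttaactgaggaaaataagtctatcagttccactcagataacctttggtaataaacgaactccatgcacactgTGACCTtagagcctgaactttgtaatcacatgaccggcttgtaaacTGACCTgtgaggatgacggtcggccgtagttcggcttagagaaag
The second holds 2 half-sites and the first none. Both are poor in G and C, 37.6% and 42.0%, against a median of 52.4% over all promoters of the table.

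Of the steroid receptors, Nr3c2 encodes the mineralocorticoid receptor, which binds aldosterone and also glucocorticoids. Nr3c2 (chr8:79426407-79767538, + strand) was read in replicates 1 and 2 at 19.2 and 22.2 rpbp at ZT0, 25.9 and 18.4 at ZT4, 28.6 and 30.1 at ZT8, 17.8 and 12.1 at ZT12, 11.1 and 15.5 at ZT16 and 15.9 and 14.9 at ZT20. Both ZT8 libraries were the highest of the 12, and both ZT16 libraries were among the 4 lowest. The mean was 29.4 ± 1.06 rpbp at ZT8 and 13.3 ± 3.11 at ZT16 (SD, n = 2), a 2.21-fold range. F24 was 0.631 with a phase of 5.39 hr (permutation p = 0.0131, adjusted 0.180). The limma F-test gave an adjusted p of 0.0803, and at ZT20 the log2 difference from ZT8 was −0.89 (SE 0.25, limma adjusted p = 0.129). With the lanes as a block, which cannot lower F24, its F24 was 0.728 (permutation p = 0.0282), and with the GC trend removed 0.534. Its promoter at chr8:76902080-76902329 (+ strand, GRCm38.p6) is rich in G and C (68.4%), and capitals mark 3 GC boxes, GGGCGG or the reverse complement.
Nr3c2 promoter: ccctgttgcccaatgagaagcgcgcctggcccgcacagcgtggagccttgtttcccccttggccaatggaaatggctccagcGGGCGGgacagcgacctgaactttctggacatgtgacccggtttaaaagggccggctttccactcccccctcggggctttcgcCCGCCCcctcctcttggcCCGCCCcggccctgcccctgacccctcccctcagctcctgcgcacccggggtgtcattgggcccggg
None of the 3 other motifs searched was found in this window.

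Esr1, for estrogen receptor alpha, had a lowest, median and highest value of 1.7, 3.8 and 9.4 rpbp. The 2 values above 6 rpbp were replicate 1 of ZT12 and of ZT16, where replicate 2 read 5.2 and 5.1. Its F24 of 0.419 (permutation p = 0.0848) was just below the limit. It rose to 0.556 with lanes as a block, which cannot lower it, and to 0.582 without ZT4 replicate 2. Esr1 was called rhythmic in these 2 settings. In the other direction, its F24 fell to 0.314 without ZT16 replicate 1, to 0.358 without ZT4 replicate 1 and to 0.366 without ZT12 replicate 1. Pgr, the progesterone receptor gene, did not exceed 0.4 rpbp.

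The NR4A receptors are immediate early genes, and all 3 were weak. Nr4a1 was read in replicates 1 and 2 at 0.9 and 0.4 rpbp at ZT0, 0.7 and 1.2 at ZT4, 0.7 and 1.1 at ZT8, 1.9 and 1.2 at ZT12, 0.7 and 0.5 at ZT16 and 1.4 and 2.8 at ZT20. Nr4a2 stayed at or below 0.3 rpbp and Nr4a3 was at 0 throughout. The vitamin D receptor gene Vdr was at 0 in all 12 libraries as well, in a tissue whose hepatocytes are known to express little of it.

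PPAR delta and PPAR gamma bind fatty acids and their derivatives. The former is expressed widely and acts on fatty acid use, the latter drives fat storage and is best known from adipocytes. Ppard (chr17:28369699-28438414, + strand) was read in replicates 1 and 2 at 6.6 and 6.8 rpbp at ZT0, 2.3 and 4.6 at ZT4, 2.3 and 1.0 at ZT8, 3.3 and 4.7 at ZT12, 4.7 and 2.3 at ZT16 and 16.1 and 8.6 at ZT20. Both ZT20 libraries were the highest of the 12, although far from each other, and ZT8 replicate 2 was the lowest. The mean was 12.4 ± 5.30 rpbp at ZT20 and 1.65 ± 0.919 at ZT8 (SD, n = 2), and the log2 difference of 2.32 (SE 0.39) had a limma adjusted p of 0.0216 (0.00983 to 0.178 over the alternatives). Leaving out ZT20 replicate 1, ZT8 replicate 1 or ZT8 replicate 2 ended this call (adjusted p = 0.178, 0.0572 and 0.118), as did testing with no threshold (0.101). The 4 libraries of this contrast were all sequenced in 2 lanes. F24 was 0.553 with a phase of 20.7 hr (permutation p = 0.00492, adjusted 0.126), and the limma F-test gave an adjusted p of 0.0397 (0.0218 to 0.126 over the alternatives). That call was lost without ZT8 replicate 2 or either library of ZT0, ZT12 or ZT20 (0.0535 to 0.113) and held without any other 1 library. Its promoter lies at chr17:28232504-28232753 (+ strand, GRCm38.p6), with 69.6% G and C and 3 GC boxes in capitals.
Ppard promoter: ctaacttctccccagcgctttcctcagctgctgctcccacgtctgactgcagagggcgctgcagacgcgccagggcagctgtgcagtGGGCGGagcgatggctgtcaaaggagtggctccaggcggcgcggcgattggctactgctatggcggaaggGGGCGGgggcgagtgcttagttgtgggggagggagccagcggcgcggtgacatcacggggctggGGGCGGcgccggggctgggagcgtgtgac
The 3 other motifs were not found in it.

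Pparg had a lowest, median and highest value of 0.5, 1.95 and 12.1 rpbp. ZT8 replicate 2 alone carried it past 6 rpbp, and ZT8 replicate 1 read 3.5. In that library the summed Kupffer (22.9 rpbp), stellate (13.8) and endothelial (16.7) markers were each at their lowest of the 12, and their part in the value was not tested. Pparg read 5.6 and 4.6 rpbp at ZT0 and 0.9 and 0.5 at ZT12, a log2 difference of −1.85 (SE 0.53) that missed the limit (limma adjusted p = 0.0812, 0.0419 to 0.362 over the alternatives). Ppard was the higher of the pair in 9 of 12 libraries and Pparg in 3.

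**Figure D5:**
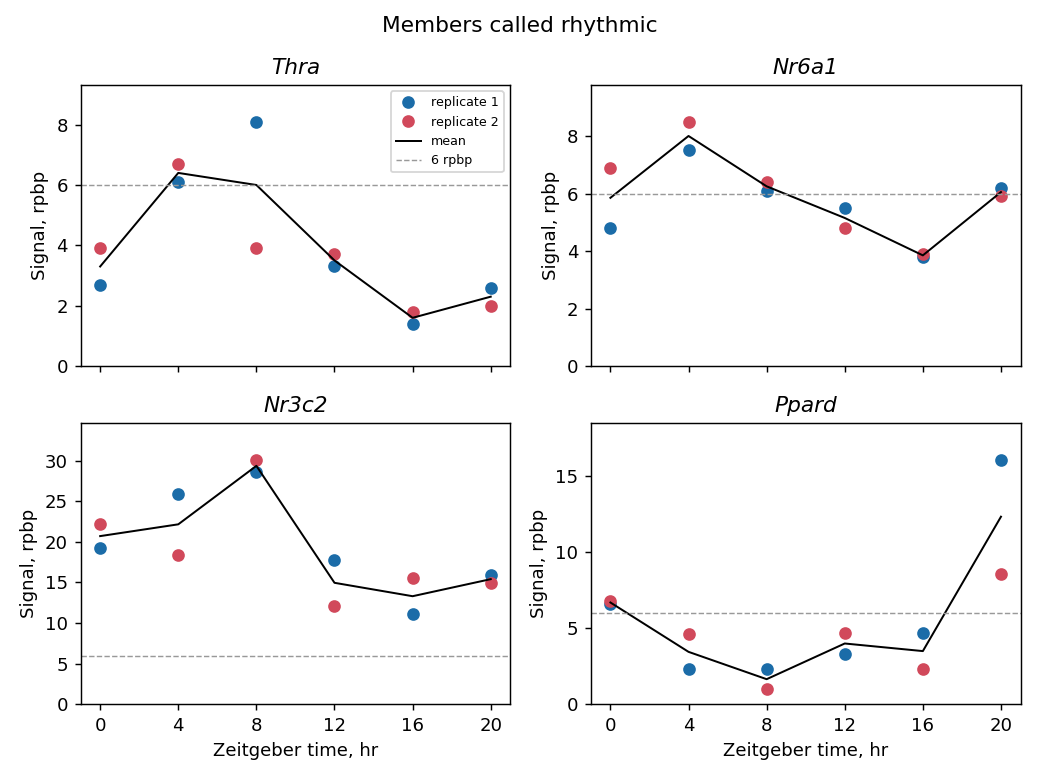
Signal (rpbp, vertical axes) of Thra, Nr6a1, Nr3c2 and Ppard, the 4 members called rhythmic, against zeitgeber time (hr), with 1 point per library, a line through the time-point means and a dashed line at 6 rpbp. By their means, Thra and Nr6a1 were highest at ZT4 and lowest at ZT16, Nr3c2 was highest at ZT8, and Ppard was highest at ZT20 and lowest at ZT8.

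Thra, Nr6a1, Nr3c2 and Ppard were called rhythmic in each of the 12 fits that left out 1 library. Since ZT8 and ZT20 were sequenced more, F24 was also computed with lanes as a block. ZT8 and ZT20 lie 12 hr apart, so this block is balanced over the 24-hr cosine and cannot lower F24. F24 was 0.761 for Thra, 0.673 for Nr6a1, 0.728 for Nr3c2 and 0.613 for Ppard. Only the permutation p, with values shuffled within lane groups, could end a call. It was 0.00096 for Thra, 0.0297 for Nr6a1, 0.0282 for Nr3c2 and 0.0468 for Ppard. All 4 calls held in that setting, where Rxra and Esr1 were called too.

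Motifs were searched on both strands in the 51 RefSeq promoters of 31 members. Thra and Hnf4g have none there. The clock E-box CACGTG was found in 2 of the 51, of Rara and Thrb, and in 6.02% of all 32851 promoters. The D-box TTATGTAA was found in none of the 51 and in 0.819% of all promoters. AGGTCA was found in 9 of the 51, of Nr0b1, Nr5a2, Nr6a1, Pparg, Rarg, Rxra, Rxrg and Thrb, and in 14.0% of all promoters. GGGCGG was found in 24 of the 51 and in 32.7% of all promoters. No motif was tested for a relation to the signal, and none of the 4 motifs contains another.

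Genes that serve these receptors were read from 5 lists. Among 24 coregulators, proteins that receptors recruit, 19 were tested. The rhythm rule called 3 of them, close to the 15.2% of all tested symbols, and a contrast between opposite time points called 2, both for ZT12 against ZT0 (4.44% of all tested symbols). Nrip1, a corepressor, was highest at ZT0 (7.75 ± 0.0707 rpbp, n = 2) and had F24 of 0.633, and Med1, the Mediator subunit that binds receptors, had F24 of 0.614. Ppargc1b, a PGC-1 coactivator, had F24 of 0.544 and stood at 8.35 ± 0.212 rpbp at ZT12 and 2.90 ± 0.707 at ZT0 (limma adjusted p = 0.0410). Trim24, a coregulator with a bromodomain, was also higher at ZT12 than at ZT0 (limma adjusted p = 0.0378), although its ZT12 replicates read 5.9 and 15.2 rpbp.

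The list of oxysterol supply and LXR targets held 12 genes, of which 6 were tested. The rhythm rule called 2 of them, Abcg5 and Abcg8, which also passed the limma F-test (adjusted p = 0.0103 and 0.0187), against 15.2% and 7.65% of all tested symbols. They encode both subunits of the sterol exporter of the bile canaliculus. Abcg5 stood at 44.9 ± 10.3 rpbp at ZT4 and 6.70 ± 2.26 at ZT16, and Abcg8 at 31.3 ± 12.3 and 5.55 ± 1.34 (SD, n = 2). The log2 signal at ZT16 fell by 2.59 and by 2.26 (limma adjusted p = 0.00905 and 0.0145), while Nr1h3 itself passed no test.

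Of 13 genes for vitamin D and steroid handling, 7 were tested, and the rhythm rule and the limma F-test each called 2, Hsd17b2 and Hsd17b6, against the same 15.2% and 7.65%. Hsd17b2, an enzyme that inactivates estradiol and testosterone, had F24 of 0.751 and a permutation p that held after adjustment (adjusted p = 0.0343). It stood at 41.7 ± 11.2 rpbp at ZT0 and 12.0 ± 0.141 at ZT12 (SD, n = 2). Hsd17b6, a steroid dehydrogenase, stood at 44.1 ± 22.0 rpbp at ZT4 and 1.75 ± 1.63 at ZT16 (limma F-test, adjusted p = 0.0353). Of 16 genes for retinoid handling, 6 were tested. The rhythm rule called 0 of them, with 0 at an unadjusted permutation p under 0.05, and the limma F-test called 1, Rdh16, a retinol dehydrogenase (16.6 ± 2.47 rpbp at ZT8, 3.20 ± 0.990 at ZT16, adjusted p = 0.0447). Of 11 genes for thyroid hormone handling and its targets, 7 were tested. The rhythm rule called 0, with 0 at an unadjusted permutation p under 0.05. The limma F-test called 0, with 3 at an unadjusted p under 0.05. Over all tested symbols these shares were 15.2%, 16.4%, 7.65% and 27.6%. In lists of 6 and 7 tested genes, as for retinoids and thyroid hormone, a count of 0 does not stand apart from such shares. The median F24 of the tested genes was 0.321 for coregulators, 0.421 for oxysterol, 0.264 for steroid, 0.295 for retinoid and 0.371 for thyroid hormone genes, against 0.222 for all tested symbols.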

How the data were processed

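The deposited table gives, per gene symbol and library, a normalized coverage signal in reads per base pair, which the authors computed from uniquely mapped reads over merged exons (CASAVA 1.7 and TopHat, mm9, per the labels), scaled to equal read numbers and rounded. Lanes were merged by the authors. The table's own F24, phase and p-value columns were not used. After 27919 blank lines were dropped, F24 was fitted by least squares on the 12 linear values, with a one-sided permutation p from 100000 permutations. limma 3.58.1 (R 4.3.3) was fitted on log2(rpbp + 1) without a block, with time points as groups, and p-values were adjusted by Benjamini-Hochberg over all 6284 tested symbols. Both tests were checked on simulated data. Other tools were Python 3.11.15, numpy 2.4.6 and pandas 2.3.3. Exon GC content and overlaps were taken from GENCODE M1 on NCBIM37 (mm9), and GC content was known for 6149 tested symbols (97.85%).

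Time points and replicates came from the sample labels. The members and gene lists were chosen with earlier results of these data known. All members above 6 rpbp were named with values, all 12 values were given for members called and for the highest of each role group, and up to 4 called genes per list were named by F24. A result on the coregulator list is not reported here. Alternatives were other thresholds, pseudocounts and scalings, removal of the GC trend, log2 values for F24, adjusted p, a replicate or lane block, and each library left out. Each time-point mean rests on 2 libraries, which sets its precision.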

Additional observations from a re-analysis of the deposited data

How the results depend on the processing

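Thra, Nr6a1, Nr3c2 and Ppard kept their rhythm call in every setting in which they were tested, except under the adjusted permutation p. Settings that changed only the threshold could not alter the call of a tested member, because the rule uses no value of other symbols. For Thra the call also did not stand with the larger Nr1d1 share subtracted, where the remainder had F24 of 0.553 at the opposite phase. That subtraction itself puts the inverse of the Nr1d1 rhythm into the remainder. The 4 rhythmic members became 2 at 12 rpbp, where Thra and Nr6a1 were not tested, and 0 by adjusted p. Over all symbols the 955 became 509 at 12 rpbp, 2225 with no threshold and 39 by adjusted p. The limma F-test count of 2 members became 1 at 12 rpbp, 0 with no threshold and 1 with a pseudocount of 0.1, and the 481 symbols became 133 with no threshold. The count of 3 member and contrast pairs became 1 at 12 rpbp and 0 with no threshold, and the 510 pairs over all symbols became 259 with no threshold. Leaving out 1 library gave 802 to 1244 rhythmic symbols, 167 to 663 by the F-test and 190 to 816 contrast pairs, and among members 4 to 5, 0 to 4 and 1 to 3.

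The study describes the replicates as 2 independent series of 6 time points, so the replicate number marks a series. In the main fits replicate numbers were not treated as pairing the libraries. Over 15 pairs of time points, the correlation of same-numbered deviations ran from −0.117 to 0.320 with a median of 0.0734, and 5 exceeded 0.1. A replicate block took the limma F-test count from 2 members to 0 (adjusted p = 0.0534 for Thra and 0.0524 for Ppard), the contrast pairs from 3 to 2 and the rhythmic members from 4 to 4. The cause of these changes was not tested. Values were rounded to 1 decimal, and of the 15 members never above 6 rpbp, those not at 0 throughout were tested only under a lower or no threshold, and Rarg was called rhythmic with no threshold (5 members in place of 4).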
